A study of Homo sapiens with 18 samples.

Results

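The clustered protocadherins are the cadherin-like genes that lie side by side in an alpha, a beta and a gamma cluster on chromosome 5. They were taken as every gene of the deposited table whose symbol begins with PCDHA, PCDHB, PCDHGA, PCDHGB, PCDHGC or PCDHAC followed by a number or letter of the cluster series. This gave 57 of 23571 named genes, of which 15 are in the alpha cluster, 19 in the beta cluster and 23 in the gamma cluster. The gamma cluster holds 12 members of the A subfamily, 8 of the B subfamily and 3 C-type genes, and the alpha cluster ends in the other 2 C-type genes, PCDHAC1 and PCDHAC2. PCDHGB8P and PCDHB19P are pseudogenes by name.

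Clustered protocadherins are cell-surface adhesion proteins best known from neurons, where each cell uses its own small choice of them and the resulting code lets its branches recognise and avoid one another. Every alpha and gamma variable exon has its own promoter and is spliced to constant exons shared by its cluster, whereas beta genes consist of a variable exon with no constant part. Promoter choice depends on CTCF and cohesin, which loop a chosen promoter to distant enhancers, and methylated promoters are silent. The C-type genes sit at the 3′ end of their cluster and follow other rules of expression than the stochastically chosen members.

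RNA was sequenced from SW48, a human colorectal cancer cell line, in 18 libraries from 6 groups of 3. Cells received a control siRNA or an siRNA against CHD4, the ATPase of the NuRD chromatin remodelling complex, each alone, with an siRNA against DNMT1, the maintenance DNA methyltransferase, or with decitabine, a nucleoside drug that traps DNA methyltransferases, at 50 nM. The groups are called control, siCHD4, siDNMT1, siCHD4 + siDNMT1, decitabine and siCHD4 + decitabine. Their schedules differed: cells with the test siRNA alone were transfected on days 1, 3 and 6 and harvested on day 8. For the siDNMT1 groups, DNMT1 was targeted on days 1, 3 and 5, the test siRNA followed on days 7 and 8, and harvest was on day 11. For the decitabine groups, the drug was added on days 1, 2 and 3, the test siRNA on days 1 and 2, and harvest was on day 5. In siDNMT1 against control and in decitabine against control, the agent and the schedule therefore cannot be told apart, and both comparisons share the same 3 control libraries. All libraries come from 1 cell line, and whether replicates were grown separately is not given in the labels. The p-values therefore refer to the spread among these libraries, which may be technical.

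Promoters carry the element by which the members are chosen, so a few are shown before the levels. RefSeq promoter windows on GRCh38.p14, from 250 bases before to 50 bases after a gene's start, were matched for 47 of the 57 members and gave 52 windows of 300 bases. The core CGCT of the conserved promoter element was searched for by its letters. On the gene's own strand, starting 85 to 35 bases before the start, it stood in 42 of the 52 member windows (80.8%), against 16.4% of the 35116 promoters in the table. It was found there in 12 of 13 alpha, 12 of 14 beta and 18 of 25 gamma windows. These bounds were chosen after the sequences had been seen. Anywhere in the window and on either strand, the same letters stood in 98.1% of member windows and 70% of all promoters. The windows below belong to the highest member of each cluster with a match in the bounds. The CGCT of that match is in capitals, and any other CGCT is left in lower case. The windows are PCDHA4 at chr5:140806818-140807117, PCDHB14 at chr5:141223093-141223392 and PCDHGA4 at chr5:141354771-141355070, all on the plus strand.
PCDHA4: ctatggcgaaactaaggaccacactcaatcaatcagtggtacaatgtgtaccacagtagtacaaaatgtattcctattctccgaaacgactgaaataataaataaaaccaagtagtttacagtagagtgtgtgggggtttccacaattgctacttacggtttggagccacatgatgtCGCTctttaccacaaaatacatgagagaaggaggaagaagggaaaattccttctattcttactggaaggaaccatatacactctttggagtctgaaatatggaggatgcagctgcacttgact
PCDHB14: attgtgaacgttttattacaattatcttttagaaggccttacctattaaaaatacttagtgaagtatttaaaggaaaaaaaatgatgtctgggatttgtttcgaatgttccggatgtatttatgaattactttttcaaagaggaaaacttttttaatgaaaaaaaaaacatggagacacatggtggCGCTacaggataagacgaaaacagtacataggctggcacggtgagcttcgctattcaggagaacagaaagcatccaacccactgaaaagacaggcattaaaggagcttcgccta
PCDHGA4: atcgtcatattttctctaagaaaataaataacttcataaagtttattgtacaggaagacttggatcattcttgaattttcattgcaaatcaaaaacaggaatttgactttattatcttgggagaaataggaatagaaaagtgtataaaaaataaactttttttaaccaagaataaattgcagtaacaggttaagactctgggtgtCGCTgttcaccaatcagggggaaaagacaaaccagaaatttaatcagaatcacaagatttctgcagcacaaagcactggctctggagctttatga

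The 40 bases around the same letters are set out for 12 members to show what each cluster shares beyond them. They include a gene listed at 0 in every library (PCDHB1), a C-type gene (PCDHAC2) and members whose levels are described later.
PCDHA4: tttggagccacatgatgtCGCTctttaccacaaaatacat
PCDHA12: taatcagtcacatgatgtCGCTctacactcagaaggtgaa
PCDHAC2: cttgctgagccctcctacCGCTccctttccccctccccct
PCDHB1: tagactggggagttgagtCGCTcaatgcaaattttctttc
PCDHB2: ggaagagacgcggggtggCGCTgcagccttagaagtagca
PCDHB12: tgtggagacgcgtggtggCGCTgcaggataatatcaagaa
PCDHB13: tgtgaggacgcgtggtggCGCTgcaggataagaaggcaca
PCDHB14: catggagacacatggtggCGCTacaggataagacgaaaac
PCDHGB1: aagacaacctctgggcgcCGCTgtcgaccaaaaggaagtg
PCDHGA4: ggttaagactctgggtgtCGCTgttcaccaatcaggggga
PCDHGA9: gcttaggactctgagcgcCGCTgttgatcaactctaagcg
PCDHGA10: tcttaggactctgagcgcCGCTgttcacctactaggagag

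In these windows the capitals follow the letters gatgt in both alpha members with a numbered name, ggtgg in PCDHB2, PCDHB12, PCDHB13 and PCDHB14, and gcgc in PCDHGB1, PCDHGA9 and PCDHGA10. PCDHB1 and PCDHAC2 hold the letters CGCT with other letters around them, and whether these belong to the conserved element was not tested. PCDHGB2, the gamma member with the highest mean level, holds CGCT on its own strand only outside the bounds. CpG dinucleotides, the sites that DNMT1 keeps methylated, numbered 15 to 27 in the 5 windows of 4 C-type genes (median 23). They numbered 2 to 25 in the 47 windows of the other members (median 7), with a median of 14 over all promoters. The ranges overlap at the first window of PCDHGB6 (16, against 15 in PCDHAC2) and at later start sites of PCDHGB4, PCDHGB5 and PCDHGB6. PCDHGC4 gave windows with 23 and 24 CpG, and PCDHGC5 had no window. With the first window of each gene alone, the median was 20.5 in the 4 C-type genes and 7 in the 43 others. No methylation was measured, and a match describes letters alone.

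**Figure D1:**
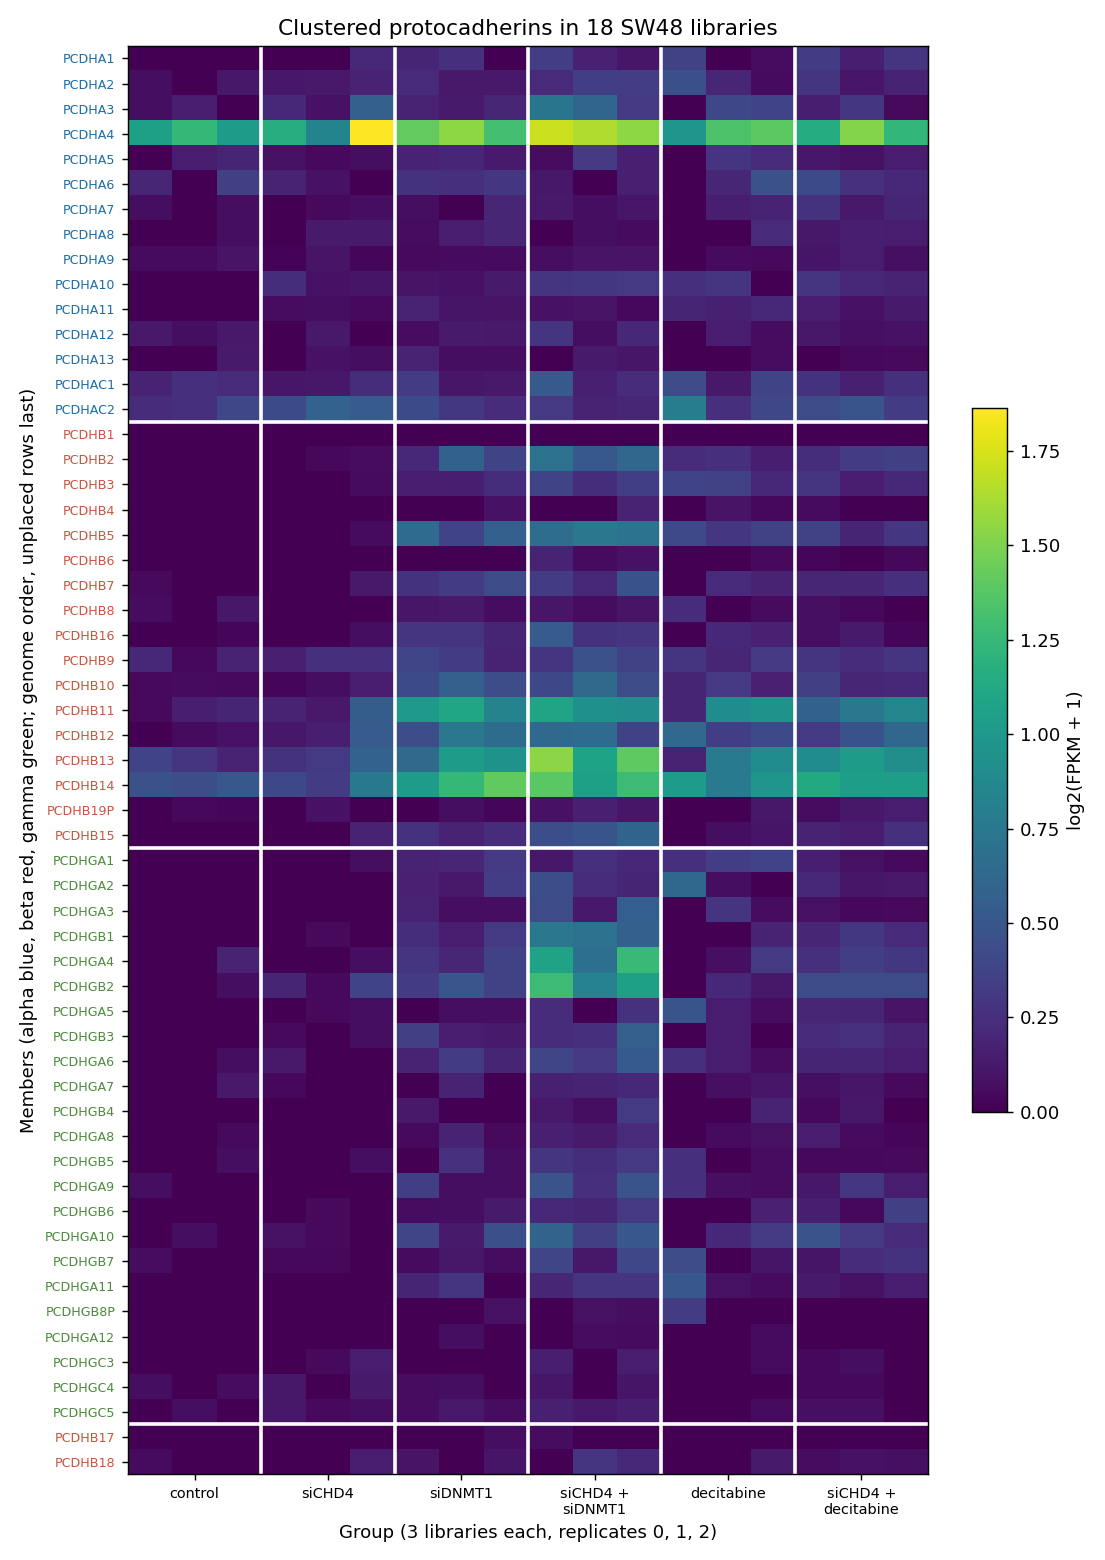
Level of each clustered protocadherin (rows, in order along the chromosome within the alpha, beta and gamma clusters) in each of the 18 libraries (columns, by group), coloured by log2(FPKM + 1). The beta rows PCDHB17 and PCDHB18, which have no position here, stand last, after the gamma rows. PCDHA4 is coloured in every library, while most beta and gamma rows are near 0 in the control and siCHD4 columns and coloured with siDNMT1 or decitabine.

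All members were low. Levels are in FPKM, fragments scaled to the length of the transcript and the number of mapped fragments, so that they can be compared between genes. In the control cells 22 of the 57 members were listed at 0 in all 3 libraries: 3 alpha, 8 beta and 11 gamma genes. The corresponding numbers were 13 with siCHD4, 3 with siDNMT1, 3 with decitabine, 1 with siCHD4 + siDNMT1 and 4 with siCHD4 + decitabine. Of the 22 genes at 0 in the control cells, 12 were above 0 in all 3 siDNMT1 libraries and 16 in all 3 siCHD4 + siDNMT1 libraries. The share of all genes with this pattern was not counted, and more genes in general were listed above 0 in these treated groups. PCDHB1 was the member listed at 0 in all 18 libraries. The letters CGCT in its promoter lie 84 bases before the start, at the edge of the bounds, without the letters that flank them in the other beta genes shown. PCDHB5 and PCDHGA1 hold no CGCT in the bounds and were above 0 in every siDNMT1 and decitabine library. Whether the letters bear on the levels was not tested.

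Depth touches these zeros. The worth of 1 fragment, read from the most frequent ratio between libraries among low genes, was 4.14-fold that of control replicate 0 in decitabine replicate 0 and 0.603- to 1.13-fold in the other libraries. The smallest member value above 0 in decitabine replicate 0 was accordingly 0.136 FPKM, so a zero there allows a level that other libraries would list. Members above 0 numbered 16 to 27 per control library, 24 to 35 with siCHD4, 46 to 48 with siDNMT1, 50 to 55 with siCHD4 + siDNMT1, 26 to 50 with decitabine and 47 to 52 with siCHD4 + decitabine. The lowest decitabine number of members belonged to that shallow library. Over all named genes the number above 0 also differed: 14903 to 15401 in control, 15905 to 16218 with siCHD4 and 15952 to 16050 with siDNMT1. It was 17376 to 17664 with siCHD4 + siDNMT1, 14736 to 16264 with decitabine and 17279 to 17632 with siCHD4 + decitabine. Among the siCHD4 libraries, replicate 2 stood apart with 35 members above 0 and a CHD4 level of 23.2 FPKM, against 39.0 and 31.8 FPKM in replicates 0 and 1. The targeted genes followed their labels: mean CHD4 was 62.8 FPKM in control and 31.3 with siCHD4, 68.2 with siDNMT1 and 28.4 with siCHD4 + siDNMT1, and 76.2 with decitabine and 54.9 with siCHD4 + decitabine. Mean DNMT1 was 44.7 FPKM in control, 12.3 with siDNMT1 and 12.1 with siCHD4 + siDNMT1. The libraries carried the colon epithelium markers at 1107 to 2518 summed FPKM, led by KRT8, a keratin of simple epithelia. In control 9 of the 14 markers had a mean of at least 1 FPKM. The sum alone does not identify the cell line. In these bulk samples fewer cells using a gene and less RNA per cell cannot be told apart.

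The 3 clusters had different starting levels. In the alpha cluster the summed level was 2.08 ± 0.289 FPKM in control (SD, n = 3 here and for every sum), 2.95 ± 1.28 with siCHD4, 3.31 ± 0.313 with siDNMT1, 4.24 ± 0.530 with siCHD4 + siDNMT1, 3.35 ± 0.366 with decitabine and 3.44 ± 0.324 with siCHD4 + decitabine. In the beta cluster it was 0.963 ± 0.132 FPKM in control, 1.61 ± 1.12 with siCHD4, 6.05 ± 0.723 with siDNMT1, 7.89 ± 0.783 with siCHD4 + siDNMT1, 3.99 ± 0.722 with decitabine and 4.64 ± 0.225 with siCHD4 + decitabine. In the gamma cluster it was 0.229 ± 0.193 FPKM in control, 0.532 ± 0.270 with siCHD4, 2.47 ± 0.0530 with siDNMT1, 6.38 ± 1.68 with siCHD4 + siDNMT1, 2.00 ± 0.674 with decitabine and 2.46 ± 0.243 with siCHD4 + decitabine. These sums are a description with no test. The beta sum was 6.29-fold and the gamma sum 10.8-fold the control mean with siDNMT1, and 4.14-fold and 8.74-fold with decitabine. The gamma control mean leans on replicate 2 (0.140, 0.0968 and 0.451 FPKM), and without it the gamma ratios were 20.9 with siDNMT1 and 16.9 with decitabine. With siCHD4 + siDNMT1 the gamma sum was 2.58-fold that with siDNMT1, and the 3 libraries of the double treatment (4.48 to 7.64 FPKM) all lay above the 3 siDNMT1 libraries (2.41 to 2.51 FPKM).

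In the alpha and beta clusters the siCHD4 means rest on 1 library. The beta sums of siCHD4 replicates 0, 1 and 2 were 0.896, 1.04 and 2.90 FPKM, and the alpha sums were 2.33, 2.099 and 4.42 FPKM. Without replicate 2 the siCHD4 mean was 0.969 FPKM in the beta cluster, 2.22 FPKM in the alpha cluster and 0.402 FPKM in the gamma cluster. All 3 of these means lie within the range of the control sums. For the gamma cluster that range reaches so high only through control replicate 2 (0.451 FPKM). The gamma sums of siCHD4 replicates 0, 1 and 2 were 0.551, 0.254 and 0.792 FPKM. Replicates 0 and 2 thus both lay above every control library.

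**Figure D2:**
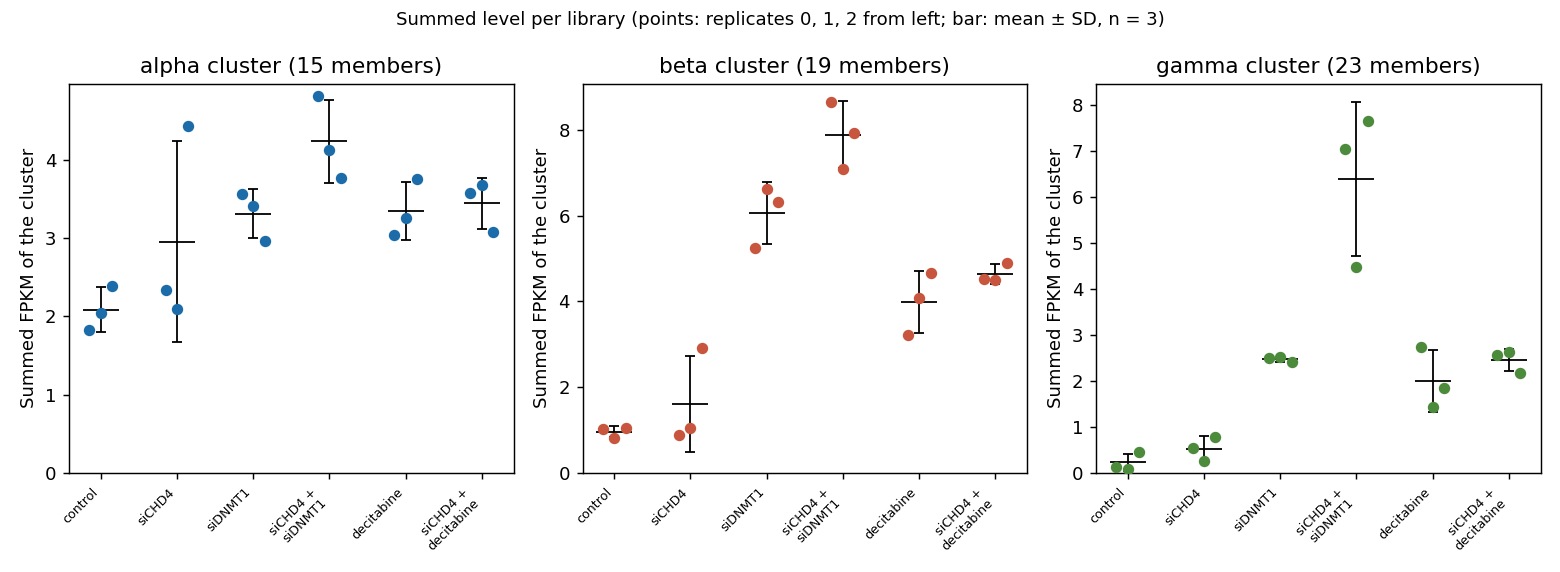
Summed FPKM of the alpha (15 members), beta (19) and gamma (23) clusters in each library; points are replicates 0, 1 and 2 from the left, the line is the mean and the bar the SD (n = 3), and each axis starts at 0. Beta and gamma sums are higher in all siDNMT1 and decitabine libraries than in all control libraries, and siCHD4 replicate 2 lies far above the other siCHD4 libraries in the alpha and beta clusters.

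What a row measures differs between clusters. In the GENCODE annotation on GRCh37, the build of the files, the canonical transcripts of 13 of 13 alpha genes end in the same 3 exons, the last of which starts at chr5:140389212, and these exons make up 48.66 to 53.43% of each transcript. The 22 of 22 gamma transcripts likewise share their last 3 exons, the last starting at chr5:140890514, for 44.85 to 45.93% of their bases. Fragments from shared exons cannot be assigned to 1 alpha or gamma member by sequence, so the values of single alpha and gamma rows depend on how the authors' software divided them. Beta transcripts share less, with 5.12 to 45.5% of their stretches of 50 bases found in another member, apart from PCDHB1, which shares none. The shares were 11.7% in PCDHB14, 14.3% in PCDHB11 and 23.3% in PCDHB13. PCDHB17 and PCDHB18 were not matched to the annotation by symbol.

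A gene entered the first test only if it reached 1 FPKM in at least 3 of the 18 libraries. Of the 57 members, 4 did: PCDHB11 in 3 libraries, PCDHB13 in 5, PCDHB14 in 10 and PCDHA4 in 16. PCDHGA4 and PCDHGB2 reached 1 FPKM in 2 libraries and lay just outside. The 3 beta genes reached 1 FPKM in treated libraries only, so that they entered through groups in which they were high, whereas PCDHA4 reached it in all control libraries. Filtered counts are therefore given as a description, and the test was also run on every gene above 0 in any library, which lets 56 members enter and leaves out PCDHB1. The values for single members below come from the fit without the filter unless said otherwise. Both were limma fits across all genes on log2(FPKM + 1), and a gene was called at a Benjamini-Hochberg adjusted p below 0.05. Changes on this scale understate the ratio of low genes, and for a gene listed at 0 in 1 whole group no fold is given.

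With siDNMT1 alone, beta genes rose. Without the filter 16 of 56 members (28.6%) were called higher and none lower, beside 4.98% of 19824 genes called higher and 2.53% lower. They were 11 of the 18 beta genes that entered, 4 of 23 gamma genes and 1 of 15 alpha genes. The median log2 difference was 0.24 over the beta genes, 0.09 over the gamma genes, 0.09 over the alpha genes and 0 over all genes. With the filter PCDHB14, PCDHB11 and PCDHB13 were called higher and PCDHA4 was not (6.94% of the 12809 genes tested were called higher and 4.4% lower), which is no support on its own, since the 3 entered through treated libraries.

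PCDHB14, the highest beta gene in control cells, was at 0.377, 0.359 and 0.418 FPKM in control, 1.04, 1.36 and 1.65 FPKM with siDNMT1, and 1.04, 0.705 and 0.967 FPKM with decitabine. All treated libraries lay above all control libraries. Its log2 change with siDNMT1 was 0.75 (SE 0.12, limma adjusted p = 0.00115). PCDHB11 was at 0.0352, 0.113 and 0.141 FPKM in control and at 1.01, 1.15 and 0.781 FPKM with siDNMT1, with no overlap and a log2 change of 0.85 (SE 0.17, limma adjusted p = 0.00564). PCDHB13, from the next gene but one along the chromosome, was at 0.296, 0.211 and 0.131 FPKM in control and at 0.565, 1.04 and 0.930 FPKM with siDNMT1, a log2 change of 0.60 (SE 0.17, limma adjusted p = 0.0460). The PCDHB13 call was lost when any 1 control library, siDNMT1 replicate 1 or siDNMT1 replicate 2 was left out, with quantile normalization and with a replicate block.

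PCDHB12, between PCDHB11 and PCDHB13, was at 0, 0.0361 and 0.0673 FPKM in control and at 0.353, 0.672 and 0.578 FPKM with siDNMT1 (log2 change 0.56, SE 0.12, limma adjusted p = 0.0112 without the filter). PCDHB5 was listed at 0 in all control libraries and at 0.572, 0.294 and 0.484 FPKM with siDNMT1 (limma adjusted p = 5.26e-05 without the filter). Neither gene's groups overlapped. The other called beta genes were PCDHB2, PCDHB3 and PCDHB15, at 0 in all control libraries, and PCDHB7, PCDHB10 and PCDHB16, whose control means were at most 0.0361 FPKM. Their siDNMT1 means ran from 0.134 FPKM in PCDHB3 to 0.391 FPKM in PCDHB10. PCDHB9, chosen here after its values were seen as an example of the beta genes that were not called, was at 0.161, 0.0288 and 0.134 FPKM in control and 0.308, 0.254 and 0.136 FPKM with siDNMT1, and the groups overlapped.

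The called gamma genes with siDNMT1 were PCDHGA1, PCDHGB1, PCDHGB2 and PCDHGA6. PCDHGB2 was at 0, 0 and 0.0483 FPKM in control and 0.257, 0.406 and 0.293 FPKM with siDNMT1 (log2 change 0.37, SE 0.10, limma adjusted p = 0.0331 without the filter). PCDHGA1, the first gamma gene, and PCDHGB1 were listed at 0 in all control libraries, with siDNMT1 means of 0.176 and 0.177 FPKM (limma adjusted p = 0.00362 and 0.0184). Over all members, 26 of 56 had all 3 siDNMT1 libraries above all 3 control libraries, beside 16% of all genes entered. These were 11 beta, 11 gamma and 4 alpha genes.

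In the alpha cluster 1 gene was called with siDNMT1. PCDHA4, the most abundant member, made up 55.6% of the alpha sum in control cells and 41.2 to 55.6% across the groups. It was at 1.08, 1.36 and 1.03 FPKM in control and 1.66, 1.93 and 1.47 FPKM with siDNMT1, where the groups did not overlap, but the log2 difference of 0.31 (SE 0.20) did not pass the test (limma adjusted p = 0.354). PCDHA11 was the called alpha gene, listed at 0 in all control libraries and at 0.133, 0.0734 and 0.0710 FPKM with siDNMT1 (limma adjusted p = 0.00493 without the filter), levels close to the smallest above 0.

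None of the 5 C-type genes was called with siDNMT1, beside the 4.98% of all genes called higher. PCDHAC2 was at 0.176, 0.189 and 0.315 FPKM in control and 0.336, 0.231 and 0.178 FPKM with siDNMT1, groups that overlapped, with a log2 difference of 0.03 (SE 0.10, limma adjusted p = 1). PCDHAC1 was at 0.134, 0.191 and 0.171 FPKM in control and 0.250, 0.0831 and 0.0898 FPKM with siDNMT1. Summed over the 5 C-type genes, the level was 0.439 ± 0.0863 FPKM in control, 0.480 ± 0.180 with siDNMT1 and 0.688 ± 0.393 with decitabine (SD, n = 3).

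The number of members called higher with siDNMT1 fell from 16 to 10 without any 1 control library or without siDNMT1 replicate 0. The 7 calls that remained under all 12 alternatives run without the filter were PCDHB5, PCDHB7, PCDHB10, PCDHB11, PCDHB14, PCDHA11 and PCDHGA1.

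**Figure D3:**
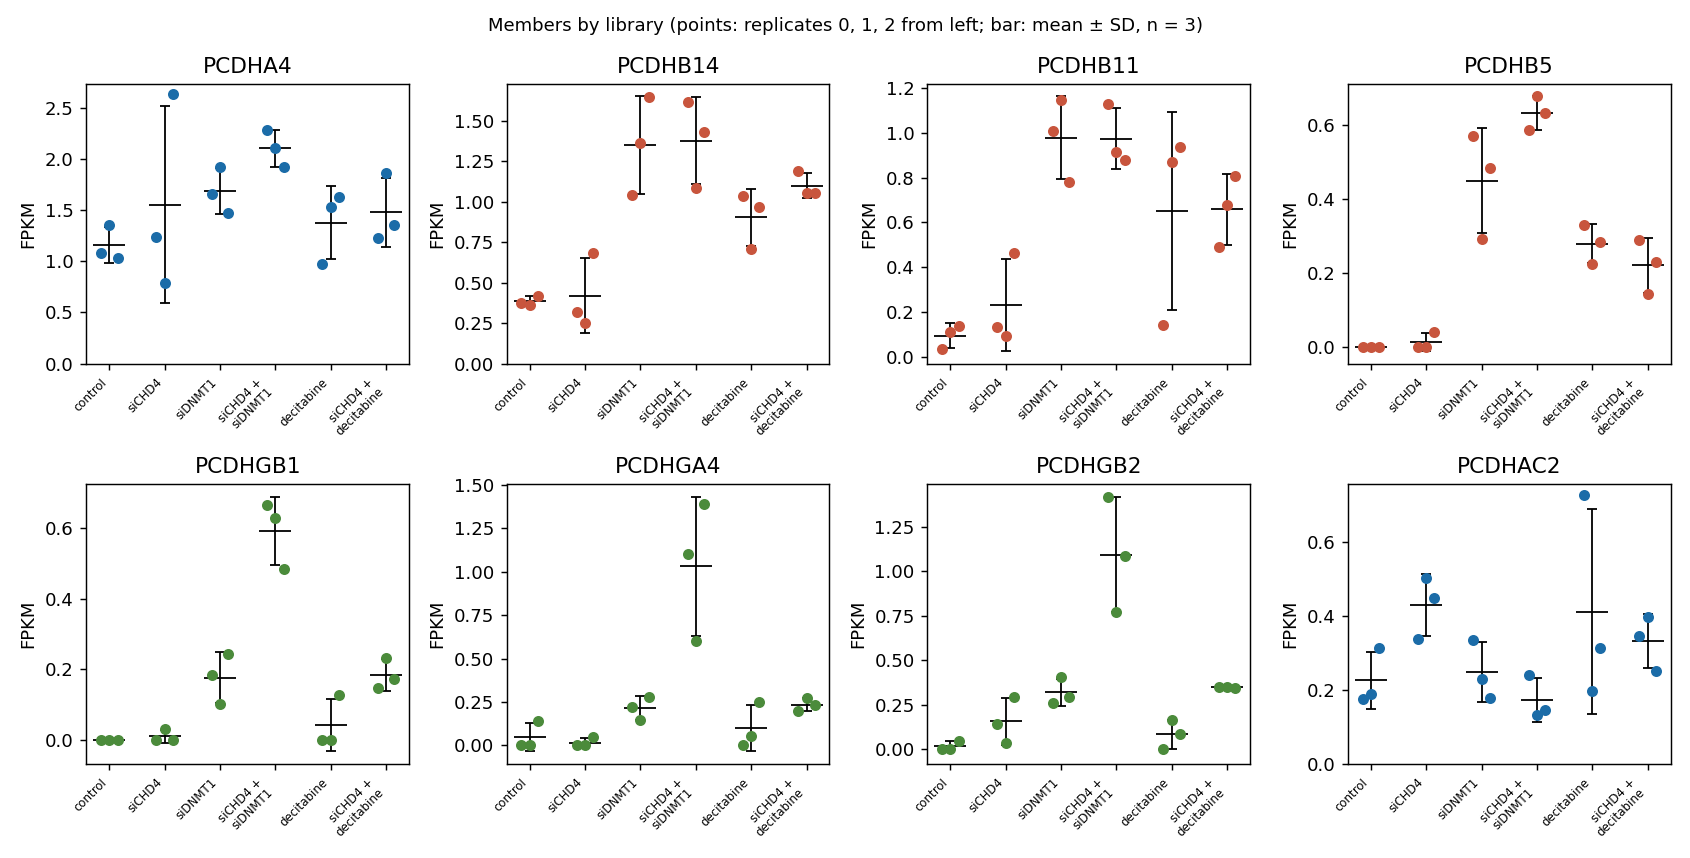
FPKM in each library, by group, for PCDHA4, PCDHAC2, PCDHB14, PCDHB11, PCDHB5, PCDHGB2, PCDHGA4 and PCDHGB1. Points are replicates 0, 1 and 2 from the left, lines are means and bars the SD (n = 3). The beta genes shown separate control from siDNMT1 and PCDHAC2 does not. PCDHGB2, PCDHGA4 and PCDHGB1 are highest with siCHD4 + siDNMT1.

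Decitabine was compared with the same control libraries. With the filter, PCDHB14 and PCDHB11 were called higher and none lower, beside 9.6% of genes called higher and 8.63% lower. Without it, 7 of 56 members (12.5%) were called higher and none lower, beside 6.32% of genes called higher and 4.8% lower: PCDHB3, PCDHB5, PCDHB11, PCDHB12 and PCDHB14 in the beta cluster, PCDHA11 and PCDHGA1. That is 5 of 18 beta genes, 1 of 23 gamma genes and 1 of 15 alpha genes, with median log2 differences of 0.12, 0.08 and 0.09 beside 0 over all genes.

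PCDHB14 had a log2 change of 0.45 (SE 0.12, limma adjusted p = 0.0260) on the values given above. PCDHB11 was at 0.145, 0.869 and 0.938 FPKM with decitabine (log2 change 0.55, SE 0.17, limma adjusted p = 0.0490), all above control, the lowest by little and in the shallow replicate 0. PCDHGA1, listed at 0 in all control libraries, was at 0.196, 0.267 and 0.296 FPKM (limma adjusted p = 0.000235 without the filter). It was the highest gamma gene by mean in these cells.

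PCDHB5, at 0 in all control libraries, was at 0.330, 0.224 and 0.284 FPKM with decitabine (limma adjusted p = 0.00170 without the filter). PCDHB12 was at 0.555, 0.265 and 0.329 FPKM (log2 change 0.41, SE 0.12, limma adjusted p = 0.0452). PCDHAC2 reached 0.727 FPKM in the shallow replicate 0 and was at 0.198 and 0.313 FPKM in the others, a range that overlaps the control values. All decitabine libraries lay above all control libraries in 11 of 56 members, beside 13.5% of all genes. The number called fell from 7 to 4 without any 1 control library. The calls of PCDHB3, PCDHB5, PCDHA11 and PCDHGA1 remained under all 12 alternatives without the filter, while neither of the 2 calls with the filter did so.

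Knockdown of CHD4 alone called no member. None of the 4 that passed the filter was called by limma, none had an unadjusted p below 0.05, and 9.58% of genes were called higher and 9.71% lower. Without the filter none of 56 was called, and 5.91% of genes were called higher and 5.29% lower. An unadjusted p below 0.05 was reached by 4883 of 19824 genes and by 2 members, PCDHA10 and PCDHA11. Both genes were listed at 0 in control and had means of 0.109 and 0.0425 FPKM with siCHD4 (limma adjusted p = 0.145 and 0.146).

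PCDHAC2 was at 0.338, 0.502 and 0.449 FPKM with siCHD4, all above the control libraries, without passing the test (limma adjusted p = 0.213). All siCHD4 libraries lay above all control libraries in 4 of 56 members, beside 13.8% of all genes. PCDHA4 was at 1.23, 0.790 and 2.64 FPKM and PCDHB13 at 0.210, 0.243 and 0.502 FPKM, so in both the high value came from replicate 2, the library with the lowest CHD4.

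When CHD4 was knocked down in cells that had received siDNMT1, 3 neighbouring gamma genes, PCDHGB1, PCDHGA4 and PCDHGB2, rose. This comparison holds siDNMT1 and the schedule constant. Without the filter 16 of 56 members (28.6%) were called higher and none lower, a share near the 23.4% of all genes called higher, while 15.4% were called lower. They were 8 of 23 gamma genes, 6 of 18 beta genes and 2 of 15 alpha genes. The median log2 difference was 0.13 over gamma, 0.08 over beta and 0.04 over alpha genes, beside 0.04 over all genes.

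PCDHGA4 was at 0.222, 0.146 and 0.281 FPKM with siDNMT1 and at 1.10, 0.601 and 1.39 FPKM with siCHD4 + siDNMT1 (log2 change 0.72, SE 0.12, limma adjusted p = 0.000274 without the filter). PCDHGB2 was at 0.257, 0.406 and 0.293 FPKM and then 1.42, 0.772 and 1.09 FPKM (log2 change 0.66, SE 0.10, limma adjusted p = 0.000167). PCDHGB1 was at 0.185, 0.102 and 0.245 FPKM and then 0.666, 0.628 and 0.484 FPKM (log2 change 0.44, SE 0.06, limma adjusted p = 4.11e-05). In all 3 genes every library of the double treatment lay above every siDNMT1 library. They are neighbours on the plus strand of GRCh37, PCDHGB1 at chr5:140729666-140892542, PCDHGA4 at chr5:140734588-140892542 and PCDHGB2 at chr5:140739561-140892542, and they share the constant exons at their ends. Together they made up 42.6% of the gamma sum of the double treatment. Their calls remained under all 12 alternatives without the filter.

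The other called gamma genes were PCDHGA3, PCDHGA6, PCDHGA7, PCDHGB5 and PCDHGA9, and in each of them the libraries of the groups overlapped. PCDHGA10, among the 4 highest gamma genes, was at 0.307, 0.0965 and 0.371 FPKM with siDNMT1 and 0.506, 0.276 and 0.420 FPKM with siCHD4 + siDNMT1, and was not called. By subfamily, the summed level went from 1.47 to 3.38 FPKM in the A genes and from 0.910 to 2.77 FPKM in the B genes.

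In the beta cluster PCDHB13 was called both with and without the filter, at 0.565, 1.04 and 0.930 FPKM with siDNMT1 and 1.90, 1.12 and 1.64 FPKM with siCHD4 + siDNMT1 (log2 change 0.47, SE 0.17, limma adjusted p = 0.0407). It was the 1 called of 4 members that passed the filter, which it did mainly through this group, beside 24.8% of genes called higher and 24.6% lower. PCDHB14, at 1.61, 1.09 and 1.43 FPKM in the double treatment, and PCDHB11, at 1.13, 0.912 and 0.879 FPKM, overlapped with siDNMT1 and were not called. PCDHB2, PCDHB3, PCDHB5, PCDHB6 and PCDHB15 were the other called beta genes.

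In the alpha cluster PCDHA3 was at 0.137, 0.0998 and 0.148 FPKM with siDNMT1 and 0.654, 0.522 and 0.237 FPKM with siCHD4 + siDNMT1 (log2 change 0.37, SE 0.13, limma adjusted p = 0.0387 without the filter), and PCDHA10 was the other called gene. The PCDHA3 call remained under 4 of 12 alternatives and was lost with a pseudocount of 0.1, quantile normalization, a replicate block, or without any 1 siDNMT1 library or siCHD4 + siDNMT1 replicate 0 or 1. PCDHA4, at 2.29, 2.11 and 1.92 FPKM in the double treatment, was not called. All libraries of the double treatment lay above all siDNMT1 libraries in 12 of 56 members, beside 30.6% of all genes.

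The size of this set depends on the scaling and on single libraries. With quantile normalization and no filter 3 members were called higher and 7 lower in place of 16 and 0, and the estimates of PCDHB2, PCDHB3, PCDHB5 and PCDHGA6 turned below 0. Without siDNMT1 replicate 0, siDNMT1 replicate 2 or siCHD4 + siDNMT1 replicate 0 the number called higher was 8, and without siCHD4 + siDNMT1 replicate 2 it was 6. The PCDHB13 call was lost without any 1 of these 4 libraries, with a pseudocount of 0.1, with quantile normalization and with the compared groups only.

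Whether the siCHD4 effect differed between cells with siDNMT1 and cells without was tested as a difference of the effects. Of the 4 members that passed the filter none was called by limma and none had an unadjusted p below 0.05, beside 2.83% of genes called higher and 1.29% lower. Without the filter 2 of 56 (3.57%) were called higher, no larger a share than the 4.34% of all genes called higher, and none lower, beside 1.17%: PCDHGA4, with a log2 difference of 0.76 (SE 0.16, adjusted p = 0.0133), and PCDHGB1, with 0.42 (SE 0.08, adjusted p = 0.00453). PCDHGA4 was at 0, 0 and 0.139 FPKM in control and 0, 0 and 0.0483 FPKM with siCHD4 alone. PCDHGB1 was listed at 0 in all control libraries and at 0, 0.0325 and 0 FPKM with siCHD4 alone, near the smallest values above 0. Both calls remained with each library left out in turn and were lost with a pseudocount of 0.1 and with quantile normalization. The number called was 4 without siCHD4 replicate 2 and 5 without siCHD4 + siDNMT1 replicate 1.

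**Figure D4:**
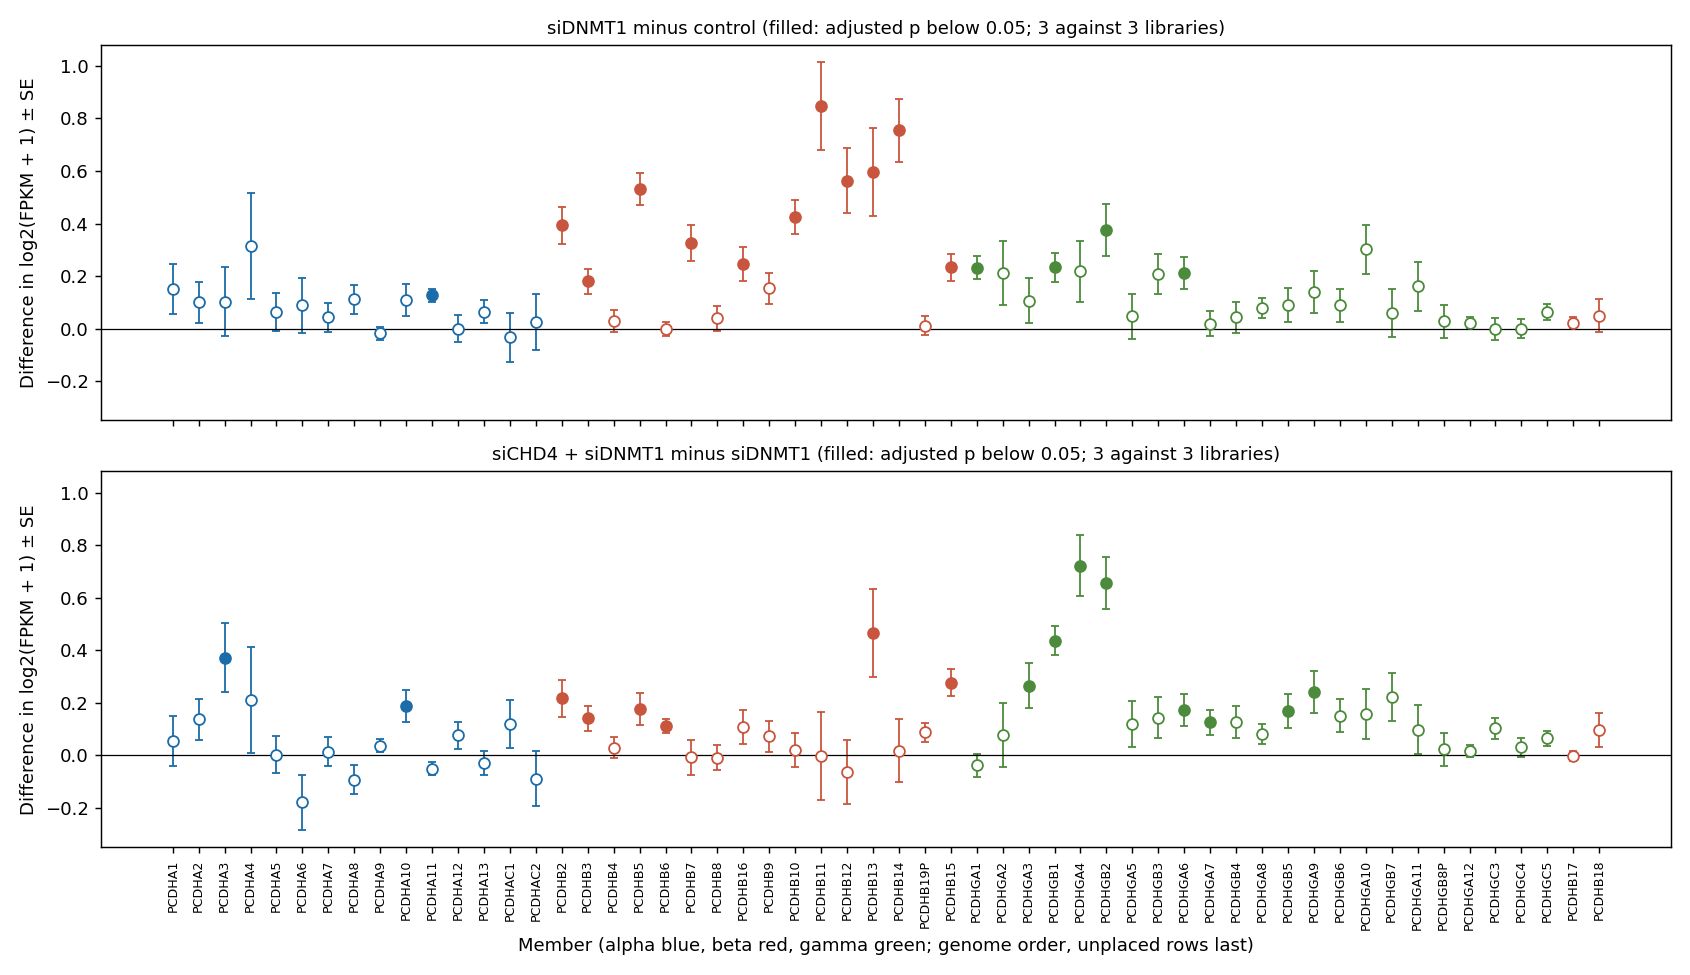
Log2 difference of each member, on the log2(FPKM + 1) scale without a filter, along the order of the genes in the alpha, beta and gamma clusters. The beta genes PCDHB17 and PCDHB18, which have no position here, stand last, after the gamma genes. The comparisons are siDNMT1 against control, and siCHD4 + siDNMT1 against siDNMT1. Bars are the SE, filled points passed a limma adjusted p below 0.05 and open points did not. Filled points are dense in the beta cluster with siDNMT1. With siCHD4 in siDNMT1-treated cells they are highest at PCDHGA4, PCDHGB2 and PCDHB13.

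CHD4 knockdown in decitabine-treated cells called 1 member. With the filter limma called none of 4, beside 3.26% of genes called higher and 1.31% lower, and no member had an unadjusted p below 0.05. Without it PCDHGA1 was called lower, beside 0.837% of genes called lower, and no member was called higher, beside 3.39%. PCDHGA1 was at 0.196, 0.267 and 0.296 FPKM with decitabine and 0.115, 0.0572 and 0.0342 FPKM with siCHD4 + decitabine (log2 change -0.23, SE 0.04, limma adjusted p = 0.00613). The call remained with each library left out and was lost when the fit held the compared groups only.

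PCDHGA4 was at 0, 0.0521 and 0.247 FPKM with decitabine and 0.197, 0.271 and 0.233 FPKM with siCHD4 + decitabine, groups that overlapped. PCDHGB2 was at 0, 0.163 and 0.0860 FPKM and then 0.351, 0.349 and 0.346 FPKM, and PCDHGB1 at 0, 0 and 0.129 FPKM and then 0.147, 0.233 and 0.174 FPKM. These were higher in every library without passing the test, in a comparison whose decitabine replicate 0 was shallow. All libraries lay apart in this direction in 6 of 56 members, beside 14.2% of genes. An unadjusted p below 0.05 was reached by 8 of 56 members, beside 3580 of 19824 genes. The knockdown was smaller here (CHD4 log2 change -0.46, limma adjusted p = 0.0752), and its part in the result was not tested. For the difference between the siCHD4 effect with decitabine and alone, limma called none of the 4 members with the filter, beside 0.773% of genes called higher and 0.383% lower, and none had an unadjusted p below 0.05. Without it none of 56 was called, beside 0.797% of genes called higher and 0.313% lower. An unadjusted p below 0.05 was reached by 4 members, beside 2509 of 19824 genes.

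Genes around and upstream of the clusters were followed as lists. Of the 17 tested genes beside or between the clusters, 2 rose with siDNMT1 and none fell (beside 6.94% of all genes called higher and 4.4% lower). TAF7, a general transcription factor subunit encoded between the beta and gamma clusters, went from 45.3 ± 1.43 to 70.8 ± 3.09 FPKM (SD, n = 3 each, log2 change 0.63, limma adjusted p = 0.000447), and DND1 had a log2 change of 0.53 (adjusted p = 0.0197). With decitabine 4 of 17 rose (beside 9.6% of all genes). With siCHD4 alone 2 rose and 1 fell, and with siCHD4 in siDNMT1-treated cells 5 rose and 5 fell. In decitabine-treated cells 1 fell with siCHD4 (beside 1.31% of all genes). The siCHD4 counts alone and with siDNMT1 lie near the shares of all genes called (9.58% higher and 9.71% lower, and 24.8% higher and 24.6% lower) and are no result about these neighbours.

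Of 12 CTCF and cohesin genes, none was called except STAG1, a cohesin subunit, lower with decitabine (log2 change -0.50, limma adjusted p = 0.0469). With decitabine 8.63% of all genes were called lower. Of 22 factors tied to silencing of the clusters, siDNMT1 changed DNMT1 itself and LRIF1, a partner of the structural protein SMCHD1, which rose (log2 change 1.07, limma adjusted p = 0.000146). Over all genes siDNMT1 called 6.94% higher and 4.4% lower. Knockdown of CHD4 alone raised 4 of the 22, including the methyltransferase gene DNMT3B (log2 change 0.90, limma adjusted p = 0.000204), and lowered CHD4, HDAC1 and HDAC2. Over all genes it called 9.58% higher and 9.71% lower. Of the same 22, 6 rose and 4 fell with siCHD4 in siDNMT1-treated cells (beside 24.8% and 24.6% of all genes). In decitabine-treated cells none passed the test with siCHD4 (beside 3.26% and 1.31%). Decitabine raised 2 and lowered 1 (beside 9.6% and 8.63%).

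Of 12 solitary protocadherins encoded elsewhere 2 could be tested, PCDH1 and PCDH7. Both rose with siCHD4 in siDNMT1-treated cells (log2 changes 0.98 and 0.81, limma adjusted p = 0.000268 and 0.000652), where 24.8% of all genes were called higher. Neither was called with siDNMT1. PCDH7 fell with decitabine (log2 change -0.52, limma adjusted p = 0.0289), beside 8.63% of all genes called lower. Of 5 tested cadherins, 3 rose with siCHD4 alone (beside 9.58% of all genes), 5 in siDNMT1-treated cells (beside 24.8%), 1 in decitabine-treated cells (beside 3.26%) and 1 with siDNMT1 (beside 6.94%). Of 22 genes for binding and processing partners, siCHD4 raised 2 and lowered 2 alone and raised 6 and lowered 2 in siDNMT1-treated cells, siDNMT1 lowered 1 and decitabine raised 1. Beside the same shares of all genes, these counts are no result about the partners.

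Markers of several other cell types differed in summed level between control and the double treatment. Of 14 neuron markers, 2 were at 1 FPKM or more in each group, and their summed level was 74.8 to 98.6 FPKM in control and 152 to 176 FPKM with siCHD4 + siDNMT1, most of it TUBB3. The number of neuron markers at 0 in every library of a group was 10 in control and 3 in the double treatment. Fibroblast markers summed to 0.121 to 0.490 FPKM in control and 14.2 to 16.0 FPKM in the double treatment, blood cell markers to 2.64 to 4.37 and 9.45 to 13.1 FPKM, and endothelium markers to at most 1.03 FPKM in any library. Glia markers lay the other way, at 15.4 to 16.7 FPKM in control and 12.7 to 13.6 FPKM in the double treatment, with MBP the 1 of 8 at 1 FPKM or more. Colon epithelium markers summed to 2053 to 2174 FPKM in control, 1233 to 1406 with siCHD4 and 1107 to 1152 in the double treatment. KRT8 and KRT18, keratins of simple epithelia, were called lower with siCHD4 in every background (KRT8 log2 change -0.92 alone and -0.999 with siDNMT1, limma adjusted p = 0.000276 and 3.02e-05). The other colon markers did not fall as a set. Of the 12 colon markers tested, siCHD4 called 4 higher and 2 lower alone (beside 9.58% and 9.71% of all genes). With siDNMT1 it called 8 higher and 3 lower (beside 24.8% and 24.6%), and with decitabine 1 higher and 2 lower (beside 3.26% and 1.31%). The part of these markers in the protocadherin values was not tested.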

How the data were processed

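Strand-specific, ribosome-depleted total RNA libraries were sequenced, per the labels' protocols. The values are FPKM per gene and library as deposited, made by the authors with TopHat2 2.0.9 and Cuffdiff 2.1.1 on hg19, per the submitters' processing notes. How Cuffdiff divided fragments among members that share exons, and whether strand was used, is not given in the sources used here. Total counts and depth are unknown, so no counting interval is given. Of 23599 entries, 28 (0.119%) carry a date in place of a name and were left out.

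Values were tested as log2(FPKM + 1) with limma 3.58.1 (R 4.3.3), with moderated variance and a trend over expression, all 6 groups in 1 model (12 residual degrees of freedom) and no covariate, and p-values adjusted over all genes. The filter, at least 1 FPKM in at least 3 of 18 libraries, left 12809 genes and 4 members. A fit without a filter entered 19824 genes and 56 members, and is used in the text to account for the members. The code was tested on simulated data. No 2 libraries were identical, and within-group correlations were 0.929 to 0.980.

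Members and lists were chosen with earlier results of these data known. Named in full are the 4 members with the highest mean in each cluster and, per comparison, up to 5 called members with the largest change and no overlap; from other lists at most 4 genes per comparison, and the targeted genes. Other members named singly were chosen after their values were seen. Alternatives were a pseudocount of 0.1, no filter, median-ratio rescaling, quantile normalization, a replicate block, the compared groups only, library weights and each library left out. Combining no filter with each of the others was chosen after seeing the data. Promoter sequences are RefSeq's.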

Additional observations from a re-analysis of the deposited data

Results flagged for a closer look

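Without the filter, the test of the difference between the siCHD4 effects with and without siDNMT1 called 2 of 56 members higher (3.57%). Over all genes 4.34% were called higher, so the count is no result about the members. In PCDHGA4 the difference was 0.76 on the log2 scale, and in PCDHGB1 it was 0.42. Both calls were lost with a pseudocount of 0.1 and with quantile normalization. Both genes were at or near 0 in the control and siCHD4 libraries, and their transcripts share their last 3 exons with the other gamma genes. Both lay higher in all 3 libraries of the double treatment than in all 3 with siDNMT1, as did 30.6% of all genes. The control and siCHD4 groups had another schedule than the siDNMT1 groups, which cannot be told apart from siDNMT1 in this difference.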

How the results depend on the processing

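Numbers of members called are given as higher unless said to be lower. From the filtered fit, dropping the filter gave 16 for siCHD4 with siDNMT1, 16 for siDNMT1, 7 for decitabine, 2 for the difference with siDNMT1 and 1 lower for siCHD4 with decitabine. With the filter, a pseudocount of 0.1 gave 0 for siCHD4 with siDNMT1. Quantile normalization gave 0 higher and 2 lower there, 1 for siDNMT1 and 0 for decitabine, library weights gave 1 for the difference with siDNMT1, and fitting the compared groups only gave 1 for decitabine. Leaving out each library gave 0 to 1 for siCHD4 with siDNMT1, 2 to 3 for siDNMT1 and 0 to 2 for decitabine.

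Without the filter, a pseudocount of 0.1 gave 1 for siCHD4 alone, 8 for siCHD4 with siDNMT1, 1 for siCHD4 with decitabine, and 0 higher and 1 lower for the difference with siDNMT1. Quantile normalization gave 1 higher and 2 lower for siCHD4 alone, 3 higher and 7 lower for siCHD4 with siDNMT1, 3 lower for siCHD4 with decitabine, 1 lower each for siDNMT1 and decitabine, 0 higher and 1 lower for the difference with siDNMT1 and 2 lower for that with decitabine. Library weights gave 2 for siCHD4 alone, 2 for siCHD4 with decitabine, 16 for decitabine, 9 higher and 2 lower for the difference with siDNMT1 and 2 lower for that with decitabine. The compared groups only gave 1 for siCHD4 alone, 8 higher and 1 lower for siCHD4 with siDNMT1, and 0 lower for siCHD4 with decitabine. Leaving out each library gave 10 to 11 for siDNMT1, 4 to 7 for decitabine, 6 to 15 for siCHD4 with siDNMT1, 0 to 1 for siCHD4 with decitabine, 2 to 5 for the difference with siDNMT1 and 0 to 1 lower for that with decitabine; without the shallow decitabine replicate 0, decitabine gave 6. The cause of these shifts was not tested. With quantile normalization and no filter, siCHD4 with siDNMT1 gave log2 estimates of -0.055 for PCDHB2, -0.044 for PCDHB3, -0.12 for PCDHB5 and -0.043 for PCDHGA6.

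Over all genes without the filter, library weights moved the calls higher and lower from 1172 and 1049 to 3002 and 2688 for siCHD4 alone, from 673 and 166 to 1772 and 1063 for siCHD4 with decitabine, from 987 and 501 to 2476 and 2222 for siDNMT1, from 1253 and 952 to 2771 and 2588 for decitabine, from 861 and 232 to 3096 and 2568 for the difference with siDNMT1 and from 158 and 62 to 860 and 597 for that with decitabine. The compared groups only moved them to 169 and 141 for siCHD4 alone, 247 and 23 for siCHD4 with decitabine, 1313 and 1141 for siDNMT1, 496 and 368 for decitabine and 161 and 23 for the difference with decitabine. Without siCHD4 replicate 2 the difference with siDNMT1 had 1539 and 1377. Without the filter, quantile normalization moved the calls higher and lower from 4647 and 3052 to 3159 and 3394 for siCHD4 with siDNMT1, from 987 and 501 to 929 and 790 for siDNMT1, from 673 and 166 to 402 and 244 for siCHD4 with decitabine, and from 861 and 232 to 494 and 342 for the difference with siDNMT1. With the filter it moved them from 418 and 168 to 335 and 257 for siCHD4 with decitabine and from 363 and 165 to 408 and 312 for the difference with siDNMT1. No scaling moved the median of all genes by more than 0.1. Same-numbered libraries had residual correlations of -0.310 to 0.126, so the numbers do not pair them; a replicate block without the filter gave 12 for siDNMT1, 14 for siCHD4 with siDNMT1 and 5 for decitabine. Summed cluster levels with 1 library left out moved from 1.61 to 0.969 FPKM for beta with siCHD4 and from 0.229 to 0.119 FPKM for gamma in control, in both without replicate 2. Most members lie near the smallest value above 0, so their zeros set no tight limit on a level, least so in the shallow decitabine library.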
